A study of Mus musculus with 48 samples.

Results

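Interstrand crosslinks and double-strand breaks are repaired by a linked set of proteins. In the Fanconi anemia pathway a core complex of FANC proteins, with the E2 enzyme UBE2T, places ubiquitin on the FANCD2-FANCI pair, and nucleases then cut the DNA on either side of the crosslink. Translesion polymerases copy past the damaged base, and homologous recombination, in which BRCA1, PALB2 and BRCA2 act on resected ends, restores the broken strand. Germline loss of BRCA2, PALB2 or ATM predisposes to pancreatic cancer, and tumors without homologous recombination are sensitive to crosslinking drugs and PARP inhibitors.

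The mRNAs of 47 such genes were followed in mPDAC cells, a mouse pancreatic ductal adenocarcinoma line of FVB/N x C57BL6 background that the labels describe as 8-week-old. The genes were chosen by symbol from 50600 genes listed, and they form 9 role groups. The cells were left untreated (NT, cultures 1, 2 and 4) or received N6L, a synthetic antagonist of nucleolin, for 48 h (cultures 1, 2 and 3). From each culture, polyA+ RNA of the cytoplasmic lysate and of the polysomes pooled from a sucrose gradient of the same lysate was sequenced, which gave 12 libraries in 4 groups of 3. All cultures came from one line and, per the study's methods, received emetine before lysis, and nuclei and mitochondria were spun out of the lysates. No source says how the cultures were separated, so that p-values measure the spread between these cultures only. In such bulk samples, a change in the share of cells that express a gene and a change of RNA per cell cannot be told apart.

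The libraries held 19519911 to 44972333 counts. Most ductal markers fitted the label. Of 10 ductal epithelium genes, 8 were above 1 CPM (read counts scaled to a common library size) in every library, while Epcam and Cldn4 were not. The list summed to 7115 to 9391 CPM in the NT cytoplasm and 6561 to 7991 in the N6L cytoplasm. In the polysomes it summed to 7471 to 9521 CPM in NT and 8702 to 10792 in N6L. Of the 6 acinar genes, Cpa1, Amy2a1 and Ptf1a were at 0 throughout, and the list summed to 27.6 to 82.8 CPM, with only Cela1 above 1 CPM in every library. Fibroblast, endothelial and leukocyte lists summed to at most 1.22, 1.15 and 2.23 CPM in any library. The labels of 3 technical replicates of N6L culture 2 in the cytoplasm name culture 1 in a second field. Their counts differed from the remaining replicate of culture 2 by a chi-square of 1.02 to 1.04 per degree of freedom and from culture 1 by 12.2 to 12.4, and they were kept in culture 2.

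Of the 47 genes, 46 had enough counts to be tested. Atrip, which encodes the partner of the ATR kinase, had 38 counts in all libraries together and was not tested. Per kilobase of transcript, the 46 members had a median of 5.95 CPM per kb in the NT cytoplasm, against 7.25 for 13867 tested genes with a known length. Ercc1 was highest at 35.4 ± 1.04 CPM per kb (SD, n = 3), followed by Ube2t at 26.1 ± 4.90, Mre11a at 24.0 ± 0.783 and Fance at 22.0 ± 2.15, and Ube2t, Mre11a and Fance differed by less than the SD of Ube2t. At the low end stood Poln at 0.235 ± 0.0392 CPM per kb, Fan1 at 0.655 ± 0.289, Atm at 0.798 ± 0.124 and Rev3l at 1.45 ± 0.370. The levels of Fan1 and Atm did not differ beyond their spread. All levels below are TMM-scaled CPM, which serve to compare the share of one gene between libraries. The study reports strongly reduced polysome peaks after N6L. Equal polysomal CPM in NT and N6L, or in polysomes and cytoplasm, therefore need not be equal amounts of RNA. All changes are fitted log2 differences with their standard errors and Benjamini-Hochberg adjusted p-values over 13889 genes (edgeR quasi-likelihood test).

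The first question was how N6L changed these mRNAs in the cytoplasm. The set split: 5 members rose, namely the kinase gene Atm, the nuclease genes Fan1 and Ercc4 and the translesion polymerase genes Rev3l and Polh, and 5 fell, namely Rmi2, Fancf, Ube2t, Eme1 and Ercc1. The other 36 tested members did not pass the test. The shares were 10.9% in each direction, while among all genes tested 14.5% were called higher and 13.8% lower, so in this fit the members were called no more often than genes at large. Their median log2 change was -0.12, against 0.04 for all genes. The groups of 3 did not overlap for 10 members in the upward and 11 in the downward direction, or 21.7% and 23.9%, beside 29.3% and 25.6% of all genes.

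**Figure D1:**
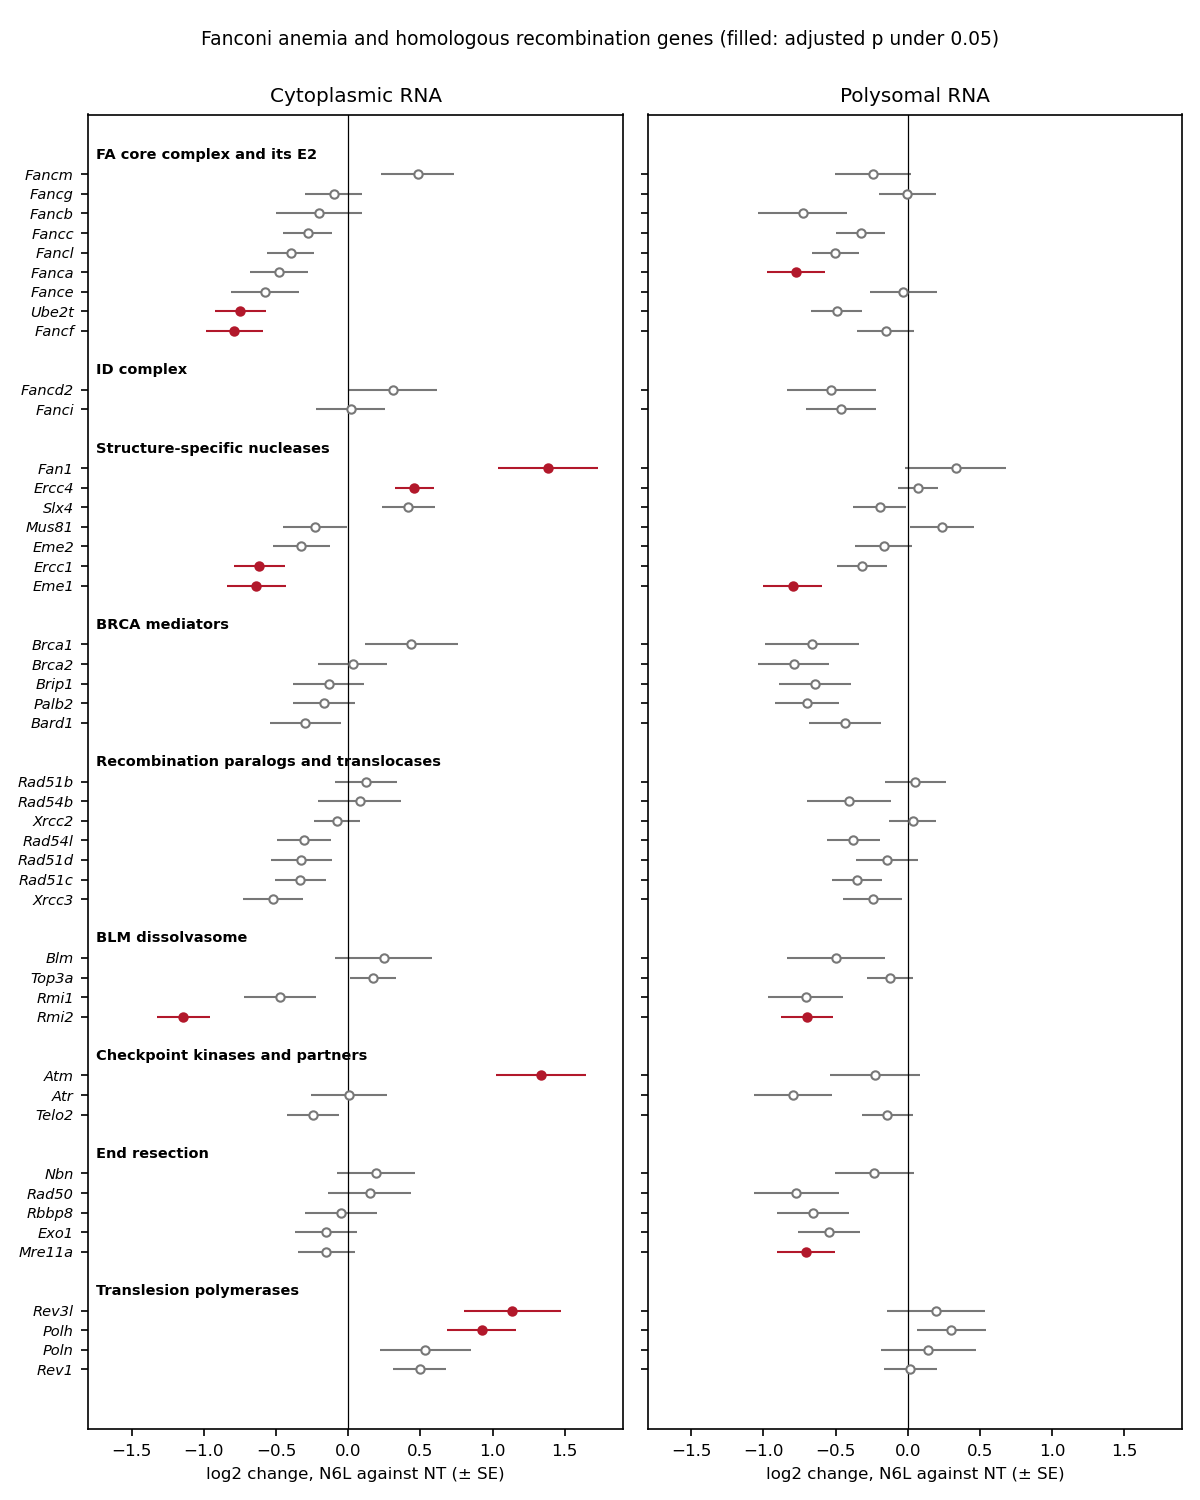
Fitted log2 change of 46 members under N6L against NT in cytoplasmic RNA (left) and polysomal RNA (right), grouped by role. Points are fitted values, bars are ± SE, and filled red points passed an adjusted p of 0.05. In the cytoplasm filled points lie on both sides of 0 (5 and 5), and in the polysomes the 4 filled points all lie below 0.

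Promoters were read for the members with an entry that passed the test with the smallest adjusted p, 4 that fell (Ube2t, Fancf, Ercc1 and Eme1) and 2 that rose (Atm and Fan1), to compare the 2 sides of the split. The windows of Ube2t and Fancf are shown because they hold the most motif matches and end at the annotated gene start. Those of Ercc1 and Eme1 lie wholly inside the GENCODE gene, and those of Atm and Fan1 reach into it. The latter windows are described only. Each line gives the 200 bases before the transcription start, 5′ to 3′ on the gene's strand, from the RefSeq table (build GRCm38.p6). Capitals mark CCAAT. Its reverse complement and the GC box, GGGCGG on either strand, were searched too.
Ube2t, chr1:134962365-134962564, plus strand: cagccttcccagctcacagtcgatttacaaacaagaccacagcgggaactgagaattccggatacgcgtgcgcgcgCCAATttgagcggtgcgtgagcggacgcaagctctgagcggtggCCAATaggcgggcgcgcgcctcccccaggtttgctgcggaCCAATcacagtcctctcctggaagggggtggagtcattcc
Fancf, chr7:51862268-51862467, minus strand: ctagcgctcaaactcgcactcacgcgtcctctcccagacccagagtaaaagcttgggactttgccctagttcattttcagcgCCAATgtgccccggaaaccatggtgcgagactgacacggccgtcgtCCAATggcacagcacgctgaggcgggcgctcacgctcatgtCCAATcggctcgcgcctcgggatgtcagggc

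The Ube2t and Fancf windows each hold 3 CCAAT boxes, the Atm window holds 1 CCAAT box on the opposite strand and 1 GC box, the Ercc1 window holds 1 GC box, and the Eme1 and Fan1 windows hold none of the letters searched. Over the 36 members with an entry, CCAAT or its reverse complement was found in 17 windows (47.2%), against 30.0% of 27025 RefSeq promoter windows of the same length. The GC box was found in 19 (52.8%, against 31.3%). The E2F motif, searched as TTTCCCGC, TTTCGCGC, TTTGCCGC or TTTGGCGC on either strand, were found in 2 members (Brca2 and Fancg, 5.56%, against 1.63%), and the CHR letters TTTGAA in 0 (against 12.7%). Among the members that passed the test, CCAAT thus stood in 2 that fell (Ube2t and Fancf) and in 2 that rose (Atm and Ercc4).

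Among the 9 genes of the core complex and its E2, 2 fell in the cytoplasm and 7 did not pass the test. Ube2t (ENSMUSG00000026429), the ubiquitin-conjugating enzyme of the pathway, was at 31.5, 22.9 and 33.0 CPM in NT cultures 1, 2 and 4 and at 19.6, 16.6 and 15.9 CPM in N6L cultures 1, 2 and 3. Every treated culture lay below every untreated one, and the fitted change was -0.75 ± 0.18 (1.68-fold, adjusted p = 0.00855). Fancf (ENSMUSG00000092118), an adaptor of the complex, went from 15.4, 9.30 and 13.0 CPM to 7.52, 7.79 and 6.52 CPM, again without overlap, with a change of -0.79 ± 0.20 (adjusted p = 0.0111). NT culture 2 was the lowest untreated culture for both genes.

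Fanca was at 33.4, 29.1 and 31.1 CPM in NT and 28.3, 19.1 and 19.8 CPM in N6L cytoplasm. The groups did not overlap, but the change of -0.48 ± 0.20 missed the limit (adjusted p = 0.0867). The remaining core genes ranged from -0.58 ± 0.23 for Fance (adjusted p = 0.0752) to 0.48 ± 0.25 for Fancm (adjusted p = 0.160), which encodes the translocase that anchors the complex on chromatin and was the only one of the 9 with a fitted value above 0. The targets of the complex, Fancd2 and Fanci, had changes of 0.31 ± 0.31 and 0.02 ± 0.24 and did not pass the test.

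The structure-specific nucleases moved in both directions. Fan1 (ENSMUSG00000033458), a nuclease recruited by ubiquitinated FANCD2, was at 2.56, 3.09 and 1.15 CPM in the NT cytoplasm and at 5.76, 5.67 and 6.47 CPM in the N6L cytoplasm, an increase of 1.38 ± 0.34 (2.61-fold, adjusted p = 0.0111). It was also one of the least abundant members, and its counts ranged from 23 to 281 per library. Ercc4 and Ercc1 encode the 2 subunits of the XPF-ERCC1 nuclease that unhooks crosslinks, and they moved in opposite directions. Ercc4 went from 18.1, 19.1 and 17.0 to 25.1, 24.2 and 25.2 CPM, a change of 0.46 ± 0.14 (adjusted p = 0.0247). Ercc1 went from 50.01, 47.2 and 48.9 to 34.1, 30.3 and 31.0 CPM, a change of -0.62 ± 0.17 (adjusted p = 0.0196). The values of neither gene overlapped between treatments. With offsets for transcript length and GC content, neither gene passed the test, and Ercc1 alone passed when a replicate block was added. Ercc4 also did not pass without N6L culture 1 or 2 or NT culture 1 or 4. Ercc1 did not pass without N6L culture 2 or NT culture 1. Eme1, the partner of MUS81 in a nuclease that resolves branched DNA, was at 20.5, 18.9 and 18.0 CPM in NT and 14.3, 10.5 and 12.2 CPM in N6L, a change of -0.64 ± 0.20 (adjusted p = 0.0319). Slx4, the scaffold for these nucleases, had a change of 0.42 ± 0.18 (adjusted p = 0.0985), and Mus81 and Eme2 had values of -0.23 ± 0.22 and -0.32 ± 0.20.

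Of the 4 genes of the BLM dissolvasome, which separates double Holliday junctions without crossing over, only Rmi2 passed the test. Rmi2 (ENSMUSG00000037991, chr16:10835059-10892966, GRCm38) encodes a small subunit that binds RMI1 and stabilises the complex. It was at 14.0, 10.6 and 12.3 CPM in NT and at 6.47, 4.76 and 5.57 CPM in N6L cytoplasm, so that the lowest untreated culture stood well above the highest treated one. The change of -1.14 ± 0.18 (2.21-fold, adjusted p = 0.00174) was the decrease with the smallest adjusted p among the members and was called in all 6 fits that left out 1 culture. Its partners gave 0.24 ± 0.33 for Blm, the helicase, 0.17 ± 0.16 for Top3a and -0.47 ± 0.25 for Rmi1 (adjusted p = 0.166), none of which passed.

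Among the checkpoint kinases and their partner Telo2, the 3 of 4 that were tested, Atm (ENSMUSG00000034218), the kinase that responds to double-strand breaks, rose from 8.39, 8.62 and 6.41 to 18.3, 21.6 and 19.3 CPM in the cytoplasm. The treated values were all above the untreated ones, with a change of 1.34 ± 0.31 (2.52-fold, adjusted p = 0.00792). Atr, the kinase of stalled forks, had a change of 0.01 ± 0.26, and Telo2 of -0.24 ± 0.18.

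Translesion polymerases had the highest median of the role groups, 0.73, with 2 of 4 called higher. Polh, which encodes polymerase eta, went from 15.8, 15.4 and 9.51 to 27.2, 24.4 and 25.9 CPM, an increase of 0.92 ± 0.24 (adjusted p = 0.0134). Rev3l, the catalytic subunit of polymerase zeta, was at 17.2, 18.4 and 11.0 CPM in NT and 23.2, 42.5 and 36.8 CPM in N6L, an increase of 1.14 ± 0.34 (adjusted p = 0.0231). N6L culture 1 was the lowest treated culture for Rev3l and NT culture 4 the lowest untreated one for both genes. Rev1, a scaffold for the inserter polymerases, had a change of 0.50 ± 0.18 with an adjusted p of 0.0568, and Poln of 0.53 ± 0.32, on 10 to 50 counts per library.

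**Figure D2:**
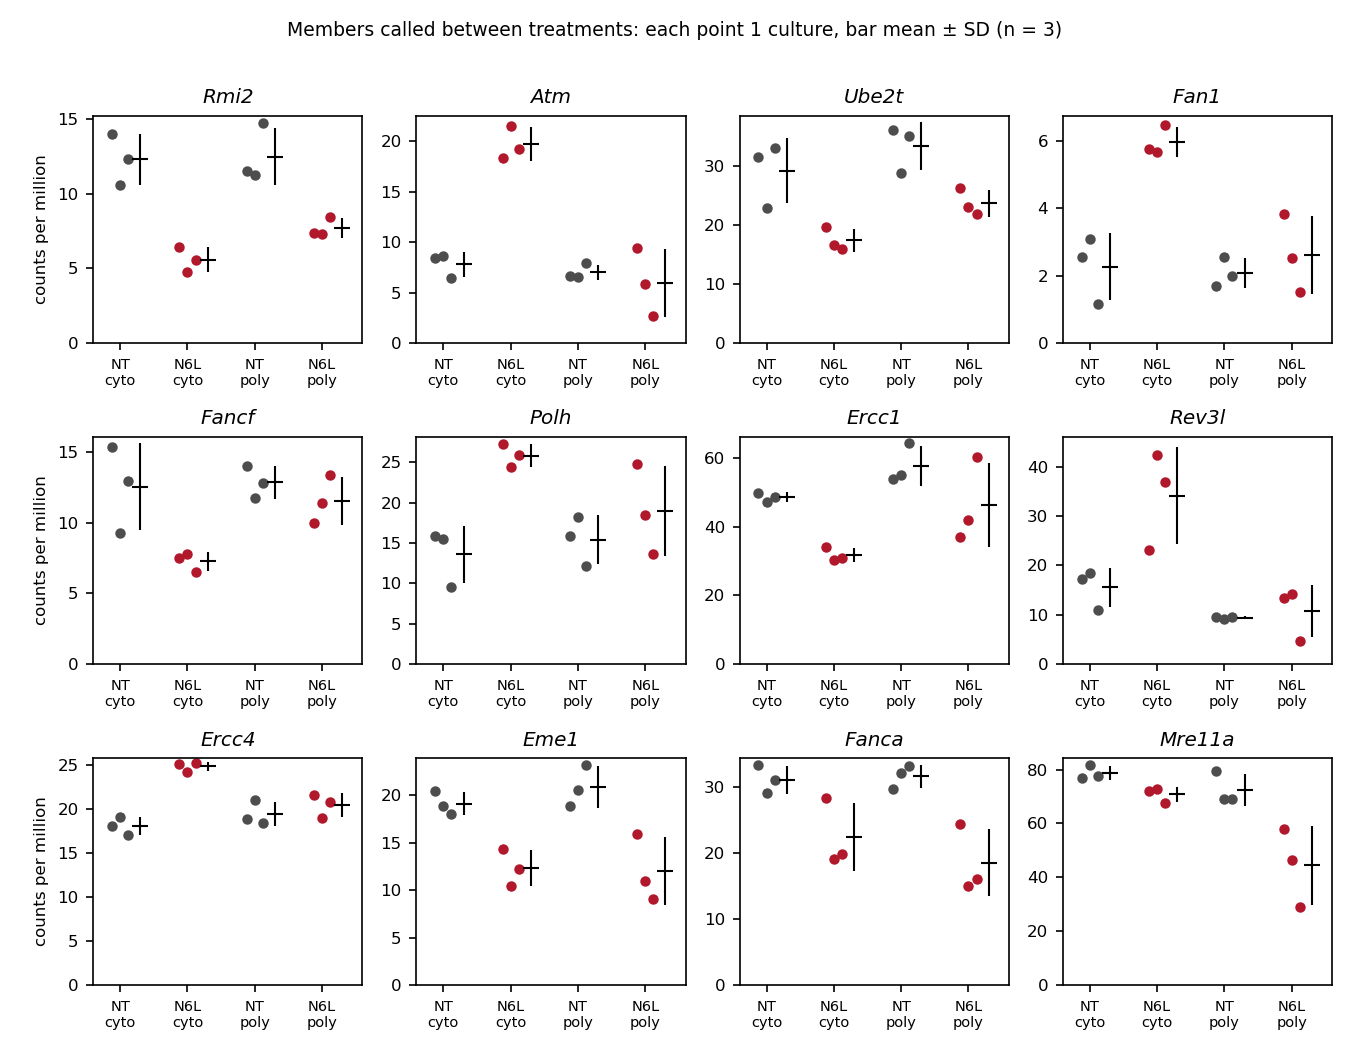
CPM (linear axis from 0) of the 12 members called between treatments in the cytoplasm or the polysomes. Each point is 1 culture (grey NT, red N6L), and the bar beside it is mean ± SD of 3. For Atm, Fan1, Polh and Rev3l the red points of the cytoplasm lie above all grey ones, while in the polysomes both colors overlap.

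No gene of the remaining role groups passed the test in the cytoplasm. The BRCA mediators ranged from -0.30 ± 0.25 for Bard1, the ring partner of BRCA1, to 0.44 ± 0.32 for Brca1, with Brca2 at 0.03 ± 0.24, Palb2 at -0.17 ± 0.22 and Brip1 at -0.14 ± 0.24. The 7 genes of the recombination paralog and translocase group (Rad51b, Rad51c, Rad51d, Xrcc2, Xrcc3, Rad54l and Rad54b) ranged from -0.52 ± 0.21 for Xrcc3 (adjusted p = 0.0733) to 0.12 ± 0.21 for Rad51b. The end resection genes lay within -0.15 and 0.19 (Nbn).

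The number of cytoplasmic calls rested on single cultures and on the fit. Without N6L culture 2, none of the 5 increases passed the test and 2 decreases did, Rmi2 and Fancf, although every called member kept its direction when any 1 culture was left out. Without NT culture 1, 3 members were called higher and 2 lower, and without NT culture 4, 2 and 4. Calls over all genes dropped in the same fits, to 4.02% higher and 5.22% lower without N6L culture 2, to 7.49% and 8.51% without NT culture 1, and to 6.97% and 8.52% without NT culture 4. With offsets for transcript length and GC content, 4 of 46 members were called higher and 18 lower, beside 1670 and 2491 of all genes (17.9% lower), and the median of the members was -0.33. Under these offsets the share of members called lower was thus above that of all genes. Scaling by library totals alone shifted the median of all genes from 0.04 to 0.19, gave 6 members higher and 4 lower, and put the median of the members at 0.026, above 0. Among all genes it changed the calls from 2013 higher and 1922 lower to 2588 and 1363.

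In the polysomes the picture was one-sided: 0 members were called higher and 4 lower, Rmi2, Fanca, Eme1 and Mre11a. Among all genes 6.01% were called higher and 3.66% lower, against 8.70% lower for the members. The fitted value was below 0 for 37 of 46 members (80.4%, against 49.9% of all genes), and the median was -0.34, against 0.00 for all genes. Values of the treatments did not overlap in the downward direction for 11 members (23.9%, against 11.9% of all genes) and in the upward direction for 0 (against 13.7%). The libraries differ from those of the cytoplasm, but both fractions came from the same lysates.

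Rmi2 was at 11.5, 11.3 and 14.7 CPM in the NT polysomes and at 7.41, 7.28 and 8.46 CPM in the N6L polysomes, a decrease of -0.70 ± 0.18 (adjusted p = 0.0301). Eme1 went from 18.9, 20.6 and 23.2 to 16.0, 11.0 and 9.03 CPM, a decrease of -0.80 ± 0.20 (adjusted p = 0.0277). Both had also fallen in the cytoplasm. Fanca, a core subunit that binds FANCG, went from 29.7, 32.2 and 33.2 to 24.4, 15.1 and 16.1 CPM (-0.77 ± 0.20, adjusted p = 0.0304). Mre11a, the nuclease that starts resection, went from 79.3, 69.1 and 69.0 to 57.8, 46.6 and 28.9 CPM (-0.70 ± 0.20, adjusted p = 0.0404), while its cytoplasmic values of 77.0, 81.7 and 77.5 in NT and 72.0, 72.9 and 67.7 in N6L gave a change of -0.15 ± 0.20 (adjusted p = 0.580). N6L culture 3 was the lowest polysome library for Eme1 and Mre11a and culture 2 for Fanca and Rmi2.

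The genes that rose in the cytoplasm were not called in the polysomes. Atm was at 6.63, 6.52 and 7.89 CPM in the NT polysomes and at 9.39, 5.85 and 2.66 CPM in the N6L polysomes, which overlap (-0.23 ± 0.31, adjusted p = 0.688). Fan1 was at 1.70, 2.55 and 1.99 against 3.83, 2.51 and 1.51 CPM (0.33 ± 0.35). Polh was at 15.8, 18.3 and 12.2 against 24.8, 18.5 and 13.6 CPM (0.30 ± 0.24), and Rev3l at 9.44, 9.07 and 9.63 against 13.4, 14.1 and 4.62 CPM (0.19 ± 0.34). For all 4 genes the N6L polysome value was lowest in culture 3. Ercc4 was at 18.9, 21.0 and 18.4 against 21.6, 19.0 and 20.7 CPM (0.07 ± 0.14).

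Of those that fell in the cytoplasm, Ube2t was at 36.1, 28.7 and 35.1 against 26.2, 23.0 and 21.8 CPM in the polysomes, without overlap but above the limit (-0.49 ± 0.17, adjusted p = 0.0897). Fancf was at 14.1, 11.8 and 12.8 against 9.96, 11.4 and 13.4 CPM (-0.15 ± 0.19), and Ercc1 at 53.9, 55.3 and 64.5 against 37.1, 42.1 and 60.3 CPM (-0.32 ± 0.17). In both, N6L culture 3 was the highest treated library and reached the untreated range.

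By role, all 5 BRCA mediators had polysomal values below 0, with a median of -0.66, and none passed. Brca2, a central mediator of recombination, had -0.79 ± 0.25 (adjusted p = 0.0573), Palb2, which bridges BRCA1 and BRCA2, -0.70 ± 0.22 (adjusted p = 0.0596) and Brca1 -0.66 ± 0.33 (adjusted p = 0.213). All 5 end resection genes were also below 0 (median -0.66), from -0.77 ± 0.29 for Rad50 to -0.23 ± 0.28 for Nbn. Atr had -0.79 ± 0.27 (adjusted p = 0.0780), and the FANCD2-FANCI pair -0.53 ± 0.31 and -0.46 ± 0.24. The paralog and translocase group ranged from -0.41 ± 0.29 for Rad54b to 0.05 ± 0.21 for Rad51b. In the core complex Fancg had -0.00 ± 0.20 and Fance -0.03 ± 0.23. Among the dissolvasome genes Rmi1 had -0.71 ± 0.26 (adjusted p = 0.101) and Top3a -0.12 ± 0.16. Mus81 had 0.24 ± 0.22.

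The polysomal calls rested on single cultures too. The decreases numbered 14 without N6L culture 1, the treated culture with the highest polysomal values of Atm, Fan1, Polh, Fanca and Mre11a. They numbered 0 without NT culture 1, NT culture 4 or N6L culture 2, 1 without NT culture 2 (Rmi2) and 2 without N6L culture 3 (Rmi2 and Ercc1). The share of all genes called lower moved the same way, to 4.93% without N6L culture 1, to 0.327%, 1.05% and 0.121% in the fits with 0 members, and to 2.65% and 2.91% in the last 2. DESeq2 called 9 lower and 0 higher, beside 6.55% and 8.09% of all genes, and offsets for length and GC content gave 22 lower and 0 higher, beside 12.1% and 9.27%. Under each of these fits the median of the members stayed below 0, and it was lowest, -0.55, without N6L culture 1.

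The next question was how the mRNAs divided between polysomes and cytoplasm within a treatment. In NT cultures no member was called in either direction (0.0% of all genes were called higher and 0.209% lower; at an unadjusted p under 0.05, 8 members or 17.4% passed, near the 13.4% of all genes, and DESeq2 called 0 members, beside 12 genes higher and 261 lower), and the median was -0.05, against 0.03 for all genes. Still, all polysomal values in NT lay below all cytoplasmic ones for 12 members (26.1%, against 12.8% of all genes). The reverse held for 3 members (6.52%, against 9.59%). In N6L cultures 4 members were higher in the polysomes, Fance, Fancf, Ercc1 and Mus81, and 19 were lower. Among all genes 18.4% were called higher and 20.6% lower, against 8.70% and 41.3% of the members. Their median was -0.43, against 0.03 for all genes.

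The 19 members with lower polysomal than cytoplasmic levels under N6L covered most roles. They were 4 of 5 end resection genes (Rad50 at -1.69 ± 0.30, Nbn at -1.32 ± 0.28, Rbbp8 at -1.29 ± 0.25 and Mre11a at -0.67 ± 0.20), both tested kinases (Atm at -1.72 ± 0.31 and Atr at -1.50 ± 0.27), and 3 of 5 BRCA mediators (Brca1 at -1.38 ± 0.33, Brca2 at -1.38 ± 0.25 and Brip1 at -0.88 ± 0.25). Fancm at -1.57 ± 0.26, Fancb at -0.92 ± 0.31, Fancd2 at -0.91 ± 0.31 and Fanci at -0.66 ± 0.24 came from the Fanconi core and its target. Rev3l at -1.67 ± 0.34 and Rev1 at -0.64 ± 0.18 were polymerases, Blm at -1.41 ± 0.34 and Rmi1 at -0.90 ± 0.26 belonged to the dissolvasome, and Fan1 at -1.18 ± 0.34 and Slx4 at -0.69 ± 0.18 to the nucleases. The adjusted p-values ran from 0.00427 (Brca2, Atr, Rad50 and Fancm) to 0.0431 (Fanci). For some of them the polysomal level was already lower in NT. The mean log2 polysome-to-cytoplasm ratio of Nbn was -0.90 in NT and -1.35 in N6L, and that of Rmi1 -0.69 and -0.92. For Atm it was -0.15 and -1.89, and for Brca1 -0.28 and -1.59. No gene of the paralog and translocase group passed, with values from -0.71 ± 0.29 for Rad54b to 0.51 ± 0.21 for Rad51d.

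The 4 members on the other side were Fance at 0.93 ± 0.23 (adjusted p = 0.00918), Mus81 at 0.77 ± 0.22 (adjusted p = 0.0157), Fancf at 0.67 ± 0.20 (adjusted p = 0.0175) and Ercc1 at 0.55 ± 0.17 (adjusted p = 0.0246). With the lysate as a block, since both fractions of a culture came from one lysate, 7 were higher and 23 lower, beside 26.1% and 27.6% of all genes. The cultures differed in the size of the split. The median log2 polysome-to-cytoplasm ratio of the members was -0.13, -0.02 and 0.05 in NT cultures 1, 2 and 4 and -0.20, -0.41 and -0.95 in N6L cultures 1, 2 and 3, while the median of all genes lay between -0.02 and 0.06 in all 6. When N6L culture 2 was left out, 0 members were called higher and 8 lower, and leaving out culture 3 gave 0 and 10. All genes dropped too, to 2.56% higher and 5.66% lower and to 3.09% and 8.64%. Leaving out N6L culture 1 gave 7 and 23, beside 18.2% and 21.7% of all genes.

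**Figure D3:**
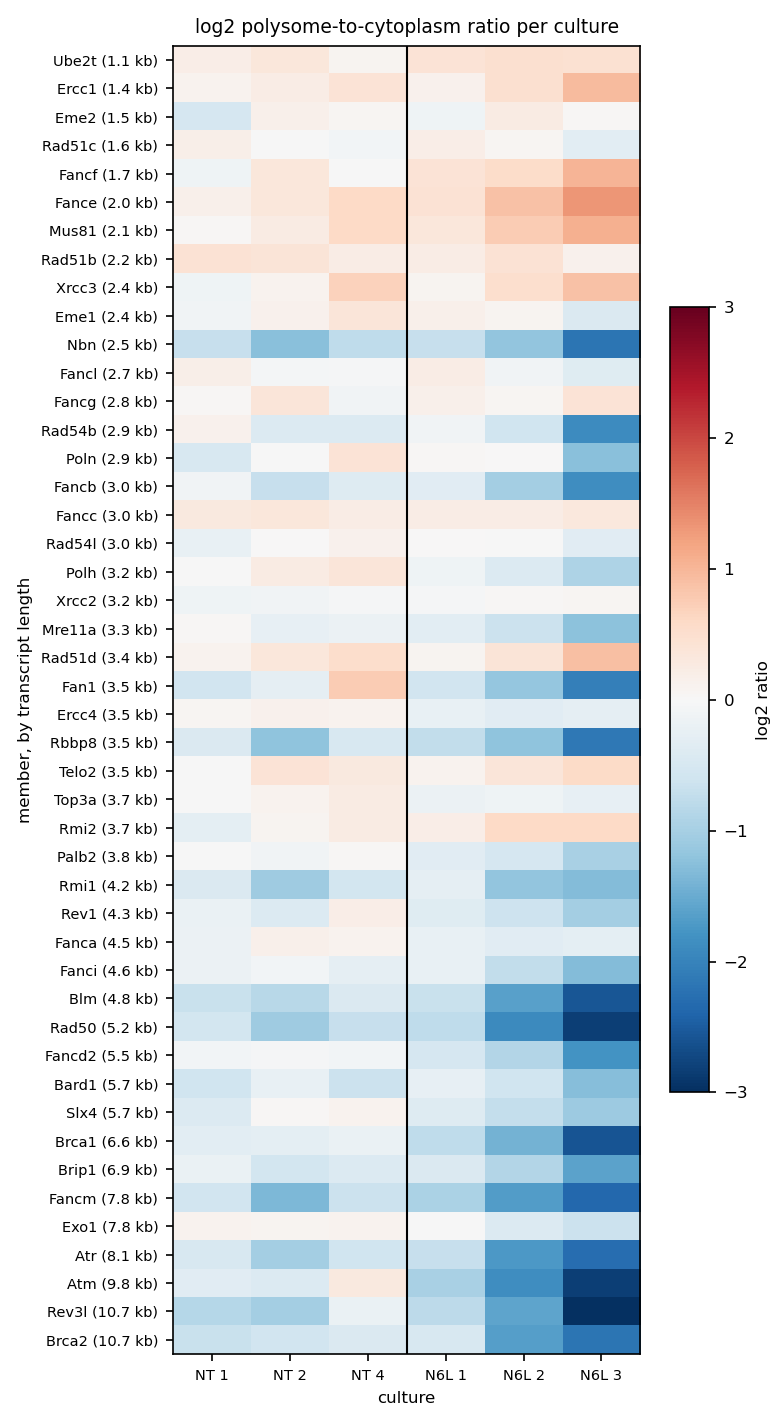
Log2 polysome-to-cytoplasm ratio of 46 members (ordered from short to long transcripts, length in parentheses) in NT cultures 1, 2 and 4 and N6L cultures 1, 2 and 3. Blue stands for lower and red for higher values in the polysomes. N6L culture 3 holds the deepest colors at both ends, with blue toward the long transcripts.

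The difference of these ratios between treatments, the translational index, was called for 0 members and 0 genes in all (0.0% in both directions by edgeR, and 0 members by DESeq2). The study, with DESeq2 and a cut-off on its index, reports mRNAs with a significantly changed index, most of them lower. It names Fanconi anemia among the functions of the lower ones. Why the calls differ was not tested. The index values below come from the same libraries and are not an independent observation. At an unadjusted p under 0.05, 7 members passed (15.2%, against 7.73% of all genes). The median index of the members was -0.39, against 0.01 for all genes, and 34 of 46 were below 0. That median went to -0.57 when N6L culture 1 was left out, to -0.18 when N6L culture 3 was, and to -0.25 when NT culture 4 was. Ratios of the treatments did not overlap for 11 members in the downward direction (23.9%, against 14.4%) and for 3 in the upward one (6.52%, against 15.3%). On simulated data of this size the edgeR test of the index recovered 72% of genes changed by 2 log2 units and 14% of those changed by 1. Only 200 of 13729 genes were changed there. The simulation held no pairing of fractions and no length trend between libraries, so that recovery in the real data can differ.

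Atm had the lowest index, -1.56 ± 0.44 (unadjusted edgeR p = 0.00304, adjusted p = 0.555). Its log2 ratio was -0.34, -0.40 and 0.30 in NT cultures 1, 2 and 4 and -0.96, -1.87 and -2.83 in N6L cultures 1, 2 and 3. Brca1 followed at -1.10 ± 0.46, with cytoplasmic levels of 36.0, 31.2 and 26.7 CPM in NT and 44.2, 42.9 and 40.2 in N6L, and polysomal levels of 28.8, 25.3 and 23.1 in NT and 25.9, 16.1 and 6.58 in N6L. Its ratio was -0.32, -0.30 and -0.21 in NT, a narrow range, and -0.77, -1.41 and -2.60 in N6L. Fan1 had an index of -1.05 ± 0.49, with ratios of -0.58, -0.27 and 0.75 in NT and -0.58, -1.16 and -2.05 in N6L. The ratios of Atm and Brca1 were lower in every treated culture than in every untreated one, and those of Fan1 nearly met, at -0.58 in NT culture 1 and N6L culture 1.

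At the upper end, Fancf had an index of 0.64 ± 0.28, with ratios of -0.13, 0.34 and -0.02 in NT and 0.40, 0.54 and 1.03 in N6L. Fance, the core subunit that binds FANCD2, had 0.55 ± 0.33. Its ratios were 0.14, 0.34 and 0.61 in NT and 0.42, 0.87 and 1.33 in N6L. Cytoplasmic Fance was at 44.9, 40.0 and 48.6 CPM in NT and 29.5, 27.9 and 32.1 in N6L, and polysomal Fance at 49.6, 50.6 and 74.2 against 39.6, 51.0 and 80.5 CPM. Mus81 had an index of 0.47 ± 0.31 and ratios of 0.04, 0.24 and 0.59 in NT and 0.35, 0.77 and 1.06 in N6L. Its cytoplasmic levels were 31.5, 36.7 and 30.3 CPM in NT and 26.7, 25.5 and 31.6 in N6L, and its polysomal levels 32.3, 43.2 and 45.8 against 34.0, 43.6 and 65.8 CPM. Of these 3 members, only for Fancf did the treated ratios all lie above the untreated ones. These 6 members were chosen for their index, so that their ratios are a description.

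Members at the 2 ends of this order differed in transcript length. The lengths are those of the transcript with the longest coding sequence in GENCODE vM21. Across the 46 members, the fitted polysome-to-cytoplasm difference in N6L had a Pearson r of -0.74 and a Spearman rho of -0.72 with log2 length, and r = 0.73 and rho = 0.74 with GC percent. In NT cells the values with length were r = -0.55 and rho = -0.59, and those with GC percent r = 0.68 and rho = 0.72. For all 13867 genes with a length, r with length was -0.57 in N6L and -0.38 in NT. With GC percent it was 0.53 in N6L and 0.42 in NT. These points share the same 12 libraries and are genes, not replicates, and the values are given as a description only.

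The 15 shortest members (1116 to 2897 bases) had a median polysome-to-cytoplasm difference of 0.21 in N6L, with 4 called higher and 1, Nbn, lower. Of all 5507 genes in that range of lengths 27.2% were called higher and 6.81% lower, with a median of 0.28, so that the short members were near other genes of their length. The 15 longest (4485 to 10724 bases) had a median of -1.38 with 12 called lower, among them Brca2 and Rev3l, the longest of all at 10724 and 10713 bases, and Atm at 9787 bases. Of all 2772 genes in the same range of lengths, 53.9% were called lower, and their median was -0.64. The 3 long transcripts without a call were Bard1 at -0.63 ± 0.25 (adjusted p = 0.0575), Exo1, the exonuclease of long-range resection, at -0.30 ± 0.22 (adjusted p = 0.279) and Fanca at -0.27 ± 0.20 (adjusted p = 0.293).

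**Figure D4:**
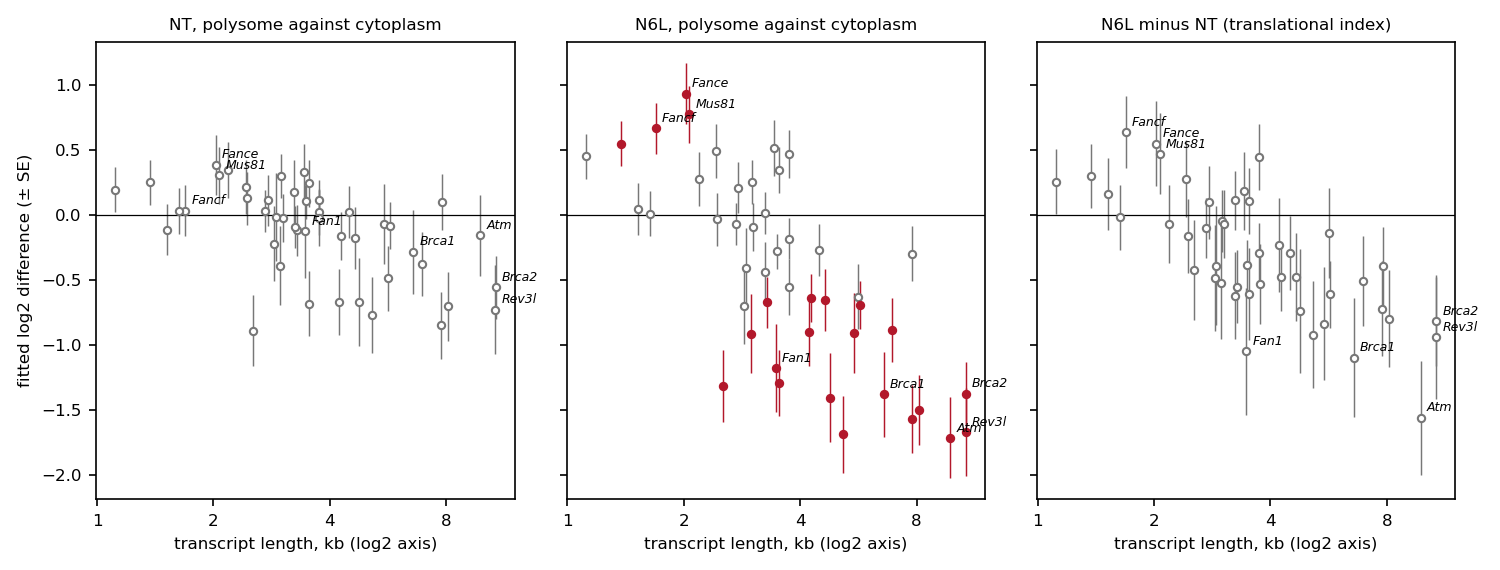
Fitted log2 polysome-to-cytoplasm difference of 46 members (± SE) in NT cells, in N6L cells, and the difference between them, against transcript length in kb on a log2 axis. Filled red points passed an adjusted p of 0.05. The N6L values fall from 0.93 (Fance) among short transcripts to -1.72 (Atm) among long ones.

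Length went with the level of whole libraries as well. The median deviation from the NT cytoplasm of all genes with transcripts of at least 4195 bases, minus that of genes up to 1617 bases, was 0.81 to 0.91 on the log2 scale in the N6L cytoplasm and -0.38 to 0.20 in the NT cytoplasm. In the polysomes it was -0.80 to -0.23 in NT and 0.09, -0.14 and -0.89 in N6L cultures 1, 2 and 3. The members followed in the cytoplasm: Pearson r of the cytoplasmic change with log2 length was 0.52, against 0.46 over all genes. The median cytoplasmic change of the short, middle (2980 to 4262 bases) and long members was -0.33, -0.16 and 0.15. All genes of the same lengths had medians of -0.13, 0.19 and 0.44. Of the 15 longest members, 2 (Atm and Rev3l) were called higher, beside 30.9% of all genes of their length. With offsets for length and GC content, 2 members were higher (Exo1 and Rmi2) and 8 lower in the N6L polysomes than in the cytoplasm, beside 9.63% and 7.93% of all genes. These 8 were Atm, Blm, Brca1, Fan1, Fancm, Nbn, Rad50 and Rbbp8, all of them among the 19. The median of the 15 longest members became -0.36, and that of all members -0.13. With the lysate as a block besides the offsets, 7 members were higher and 15 lower, beside 18.4% and 15.3% of all genes. What made library composition go with length was not tested.

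Counts of 25 members could be touched by other genes on their exons, since the strand setting of the counting is not given. Eme1 shares 221 exonic bases with Lrrc59 (152892 counts over all libraries, against 5609 for Eme1), Fanca 920 bases with Zfp276, Fancf 253 bases with Gas2 and Rev1 1643 bases with Eif5b, all on the opposite strand. Rad54b shares 2068 bases with Fsbp on the same strand, and Eme2 1557 bases with Mapk8ip3. Rmi1 shares 330 bases with Hnrnpk on the opposite strand (203123 counts, against 2455 for Rmi1). Poln shares 108 bases with Haus3 on the same strand (8916 counts, against 289 for Poln). Values of these genes are uncertain to that extent.

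Other genes of DNA repair and replication were counted for context. Among all genes tested, 14.5% were called higher and 13.8% lower in the cytoplasm, and 6.01% and 3.66% in the polysomes. Of 48 further Fanconi anemia and recombination genes, 3 rose (6.25%) and 16 fell (33.3%) in the cytoplasm (median -0.20). In the polysomes 0 rose and 8 fell (16.7%). Among those that passed, the largest increases were those of Polk, a translesion polymerase (0.97 ± 0.32), and Fbh1, a DNA helicase (0.62 ± 0.17), and the largest decreases those of Mnd1, a recombination cofactor (-1.40 ± 0.20), and Cenpx, which binds FANCM (-1.27 ± 0.28). The replication licensing and fork genes gave 0 higher and 21 lower (44.7%) of 47 in the cytoplasm and 0 and 12 (25.5%) in the polysomes. Cytoplasmic counts were 1 higher and 3 lower of 21 tested checkpoint and chromatin response genes (4.76% and 14.3%) and 2 and 1 of 10 end-joining genes (20% and 10%). They were 0 and 0 of 7 mismatch repair genes (0 also at an unadjusted p under 0.05), and 3 and 6 of 36 excision repair genes (8.33% and 16.7%). In the polysomes these 4 lists gave 0 and 2, 1 and 1, 0 and 1, and 0 and 0. For N6L polysomes against cytoplasm, 47.6%, 30%, 57.1% and 19.4% of the 4 lists were lower. The share was 25% of the further Fanconi anemia and recombination genes and 17.0% of the replication genes. It was 41.3% of the members and 20.6% of all genes. The median index of the 4 lists was -0.34, -0.19, -0.72 and 0.03, and that of the members -0.39. Low polysome-to-cytoplasm values were thus not particular to the members.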

How the data were processed

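Alignment by the authors was done in STAR and counting in HTSeq (0.5.3, per the labels), and they deposited 48 tables of raw counts, 4 runs for every library. The submitters' processing notes name the build mm10, and the strand setting of the counting is not given in the sources used here. Technical replicates were summed. Genes were filtered with filterByExpr, scaled by TMM and fitted in edgeR 4.0.16 (R 4.3.3) with glmQLFit and glmQLFTest on all 12 libraries, 1 mean per group and no block, with Benjamini-Hochberg adjustment and a limit of 0.05. The study's methods name DESeq2, which served here (1.42.0) as an alternative. Culture ratios used log2 CPM with a prior count of 2. Symbols, coordinates, lengths and GC content came from GENCODE vM21 (50376 of 50600 genes found).

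The comparisons were N6L against NT in each fraction, polysomes against cytoplasm in each treatment, and the translational index as 1 contrast. The cytoplasm and polysomes of a culture came from one lysate, which pairs them. Across genes, deviations from the mean of the group had r = 0.364, 0.452 and 0.645 in NT and r = 0.0368, 0.199 and 0.229 in N6L. The fit was tested on simulated counts. Members named by library were those called between treatments, at most 12, and the 3 highest and 3 lowest by index. All members are accounted for by role, and genes of other lists are named only as the largest cytoplasmic changes. Members and lists were chosen with earlier results of these data known.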

Additional observations from a re-analysis of the deposited data

Results flagged for a closer look

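The log2 polysome-to-cytoplasm ratio of 2 members had opposite signs in every culture of the 2 treatments. For Ercc4 it was 0.06, 0.13 and 0.11 in NT cultures and -0.22, -0.35 and -0.28 in N6L cultures, a difference of -0.39. For Exo1 it was 0.10, 0.08 and 0.12 in NT and -0.00, -0.41 and -0.65 in N6L, a difference of -0.45. N6L culture 1 stood near 0 for Exo1. With offsets for transcript length and GC content, Exo1 was instead called higher in the N6L polysomes than in the N6L cytoplasm. The test of the difference itself, the translational index in edgeR, gave an adjusted p of 0.555 for Ercc4 and 0.587 for Exo1. Among all 13889 genes, 228 (1.64%) showed this pattern from above 0 to below 0 and 138 (0.994%) the reverse.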

How the results depend on the processing

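Leaving out 1 culture at a time, the members called in the cytoplasm ranged from 0 to 6 higher and 2 to 7 lower, with a median of -0.17 to -0.083. In the polysomes 0 to 14 were lower, and in the N6L polysome-to-cytoplasm comparison 0 to 7 were higher and 8 to 23 lower, in the NT one 0 to 1 lower.

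The share of all genes called in the same fit is given in parentheses. In the cytoplasm, the members called lower were 8 by DESeq2 (17.8%), 3 with technical replicate a alone (13.6%), 10 with only the groups compared (21.3%), 18 with offsets for transcript length and GC content (17.9%) and 17 with these offsets and the replicate block (19.2%). Of 46 members, 8 and 10 are near the share of all genes. Those called higher were 9 with only the groups compared (20.9%) and 3 with block and offsets (13.0%). The cytoplasmic median was 0.026 with library totals alone, -0.17 with technical replicate a, -0.00644 with the replicate block, -0.33 with the offsets and -0.27 with both. In the polysomes 1 member was lower with library totals alone (2.25%), 11 without a filter (2.65%), 9 by DESeq2 (6.55%), 0 with technical replicate a (2.94%), 0 with only the groups compared (0.524%), 22 with the offsets (12.1%) and 18 with offsets and block (12.4%).

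For N6L polysomes against cytoplasm, 8 members were higher by DESeq2 (22.3%), 7 with the replicate block (26.1%), 2 with the offsets (9.63%) and 7 with both (18.4%). Those lower were 8 with the offsets (7.93%) and 15 with both (15.3%). In NT, 5 were lower without a filter (2.35%), 1 with only the groups compared (1.06%), and 2 were higher (1.64%) and 1 lower (2.57%) with block and offsets. The index was called lower for 2 members, Atm and Brca1, without a filter (0.382%). Relative to cytoplasm in N6L, Brip1 turned to 0.13 and 0.12, Ercc1 to -0.12 and -0.12, and Exo1 to 0.55 and 0.54 with offsets alone and with the block. The cause of these shifts was not tested, apart from the fits with fewer libraries or counts.

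For polysomes against cytoplasm and for the index, the block was the culture, which paired the fractions of a lysate. For N6L against NT it was the culture number, so that cultures 1 of both treatments, and cultures 2, were taken as matched. No source used here says that they were. Between treatments the cultures shared only numbers 1 and 2, and deviations correlated by 0.228 and 0.0455 in the cytoplasm and 0.296 and 0.00756 in the polysomes. With the culture number as block, Eme1 lost its cytoplasmic call (-0.53, adjusted p = 0.0534). The limits are 3 cultures per group and a common biological coefficient of variation of 0.197. On the simulated data, which held no pairing or length trend, 53% of genes changed by 1 log2 unit were recovered in the cytoplasm. For the index it was 14%.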
